A study of Mus musculus with 12 samples.

Results

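The transcripts of 8 genes of the death receptor signalling complex were followed, namely Fadd, Casp8, Cflar, Tradd, Fas, Tnfrsf1a, Tnfrsf10b and Traf2. They were taken by gene symbol from the 55573 genes of the deposited tables, with earlier results of these data known, and all 8 passed the filter on low counts that left 16396 genes to test. The cells were fibroblasts of mouse embryos, made immortal with SV40 large T antigen, and RNA was sequenced without treatment 24 h after plating, in 12 libraries of 4 groups with 3 replicates each. The Fadd line was Fadd -/-, Mlkl -/-, and was studied as the Fadd/Mlkl knockout and with Fadd put back by ectopic expression. The Casp8 line was Casp8 -/-, Mlkl -/-, and was studied as the Casp8/Mlkl knockout and with Casp8 put back in the same way. Per the labels' protocols, the knockout groups carried an empty vector and the replicates were independent cultures. All 4 groups therefore lacked Mlkl by genotype and carried large T antigen, and none had both Fadd and Casp8 from their own loci. Each genotype was represented by 1 line, so that line and genotype cannot be told apart. The vector, its promoter, the sequence it carried and the number of clones in a line are not given in the sources used here.

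Death receptors are membrane proteins of the tumour necrosis factor receptor family with a death domain in the cytoplasm. When a ligand binds Fas or the TRAIL receptor, FADD is drawn to that domain and in turn binds caspase-8, a protease that starts apoptosis. At the receptor for tumour necrosis factor, TRADD and TRAF2 first build a signalling complex on the membrane, and FADD and caspase-8 join in a later complex in the cytoplasm. The protein cFLIP, from the gene Cflar, resembles caspase-8 without its protease activity and pairs with it, which sets how active caspase-8 becomes. Caspase-8 in these complexes also holds back necroptosis, the form of cell death that MLKL carries out.

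In mm10, Fadd (ENSMUSG00000031077.7) lies on chromosome 7 at 144577318 to 144582463 on the minus strand. Casp8 (ENSMUSG00000026029.14) lies on chromosome 1 at 58795374 to 58847503 on the plus strand. Cflar (ENSMUSG00000026031.15) is its neighbour on the same strand, at 58711508 to 58758884, and 36489 bases separate the end of Cflar from the start of Casp8. The promoter windows of the deleted genes are shown because the put-back levels below are set against the endogenous genes. Each window lies at a start annotated by RefSeq, which for Casp8 is inside the gene as placed above, and which start the cells used was not measured. They are RefSeq windows on GRCm38.p6 of 300 bases that end 50 bases after the annotated start, and capitals mark the GC box GGGCGG, searched on both strands.
Fadd promoter, chr7:144582392-144582691, minus strand: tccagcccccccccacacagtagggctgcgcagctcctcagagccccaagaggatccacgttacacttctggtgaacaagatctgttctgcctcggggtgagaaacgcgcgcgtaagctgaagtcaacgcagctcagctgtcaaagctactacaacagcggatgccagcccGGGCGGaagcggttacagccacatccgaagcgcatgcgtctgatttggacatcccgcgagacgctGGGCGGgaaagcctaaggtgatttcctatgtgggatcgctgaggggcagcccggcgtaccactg
Casp8 promoter, chr1:58802252-58802551, plus strand: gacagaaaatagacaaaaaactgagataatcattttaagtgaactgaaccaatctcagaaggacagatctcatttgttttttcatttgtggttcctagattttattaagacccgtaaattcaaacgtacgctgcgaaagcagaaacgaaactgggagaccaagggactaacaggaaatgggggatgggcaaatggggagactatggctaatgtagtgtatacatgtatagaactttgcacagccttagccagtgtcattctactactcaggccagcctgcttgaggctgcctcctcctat
The Fadd window held 22 CpG sites, 2 GC boxes and 60.3% G or C. The Casp8 window held 5 CpG sites, no GC box and 42.0% G or C. A GC box was present in 35.7% of 32851 promoter windows of the same length.

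Values below are deposited TPM, a level per transcript length and library total, unless CPM is named. CPM is the library-scaled count of a gene, not divided by its length, and changes are fitted log2 ratios of counts from edgeR's quasi-likelihood test, with their standard error (SE). A gene was called at an adjusted p under 0.05 over all 16396 genes. Depth was 33918359 to 59388559 expected counts per library. The fibroblast markers Col1a1, Col1a2, Pdgfra, Pdgfrb and Vim reached 1 TPM in at least 1 library, while Thy1, Dcn and Lum did not. In the Fadd/Mlkl knockout 4 of the 8 did so, and 5 in each other group. The 8 fibroblast markers summed to 468 to 648 TPM in the Fadd/Mlkl knockout, 754 to 905 TPM with Fadd put back, 1550 to 2430 TPM in the Casp8/Mlkl knockout and 1760 to 2360 TPM with Casp8 put back. Endothelial, muscle and leukocyte markers summed to at most 0.15, 0.67 and 1.99 TPM per library, with Cdh5 and Cd3e at 0. Of the leukocyte markers, Cd68 and Lyz2 reached 1 TPM in at least 1 library. Epithelial markers summed to 0.38 to 15.8 TPM, with Krt19 the 1 of 5 to reach 1 TPM. Neural markers summed to 18.2 to 97.5 TPM, where Tubb3, Nes and Map2 reached 1 TPM and Sox10 was at 0. On interferon response genes, the replicate 1 libraries stood apart in both groups of the Fadd line and in the Casp8/Mlkl knockout. The mean log2 CPM of 12 interferon response genes was 7.68 in Fadd/Mlkl knockout replicate 1, against 5.40 and 5.36 in the other two replicates, and 1.97 in Fadd put-back replicate 1, against 4.14 and 4.02. It was 0.73 in Casp8/Mlkl knockout replicate 1, against 3.13 and 2.96, and 0.70, -0.48 and 0.01 with Casp8 put back. The part of these differences in the results below was not tested, apart from the values given without the libraries.

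The deleted Fadd gene was close to silent, and the gene put back was expressed above the endogenous level of the other line. Fadd stood at 0.02, 0.01 and 0.01 TPM in the Fadd/Mlkl knockout libraries, against 4.24, 3.05 and 3.99 TPM in the libraries with Fadd put back. The 3 knockout libraries held 10, 2 and 4 expected counts, 16 in all, against 3202 with Fadd put back. Every knockout library lay far below every put-back library. The log2 change was -7.84 (SE 0.44, 95% interval -8.80 to -6.87, adjusted p = 1.32e-05 by edgeR), and 1.52% of all genes were called in this comparison.

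The Casp8 line, whose Fadd gene was intact, had 1.39, 1.73 and 2.08 TPM of Fadd in the Casp8/Mlkl knockout and 1.48, 1.72 and 1.61 TPM with Casp8 put back. These groups overlapped, and the fitted change between them was 0.11 (95% interval -0.57 to 0.78, adjusted p = 0.999 by edgeR). Their 6 libraries averaged 1.67 ± 0.242 TPM (SD, n = 6), the endogenous level. Fadd put back averaged 3.76 ± 0.628 TPM (SD, n = 3), which is 2.25 times that level, and its replicates stood at 2.54, 1.83 and 2.39 times it. All 3 put-back libraries lay above all 6 libraries with endogenous Fadd. On counts the excess was 1.24 in log2 (SE 0.26, 95% interval 0.67 to 1.81, adjusted p = 0.0162 by edgeR), where 7.92% of all genes were called. The call was lost without put-back replicate 1 (log2 1.15, adjusted p = 0.0821) and without put-back replicate 3 (log2 1.19, adjusted p = 0.0682). The residue in the Fadd/Mlkl knockout was 0.799% of the endogenous level on TPM, whose knockout values lie at the rounding limit, and 0.997% on CPM.

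TPM divides by transcript length, and for Fadd the annotation holds a single transcript of 3903 nt, of which 615 nt code for protein. The effective length implied by the deposited counts and FPKM was accordingly the same with Fadd put back, 3683 to 3694 nt, as in the Casp8 line, 3684 to 3712 nt. The sources do not say whether the vector carried the coding part alone, so the ratio of molecules put back to endogenous molecules was not tested. In bulk RNA, the share of cells that carry the vector and the amount of transcript per cell cannot be told apart. The opposite-strand gene Faddos shares 239 exon bases with Fadd and had 0.25 counts per library on average.

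**Figure D1:**
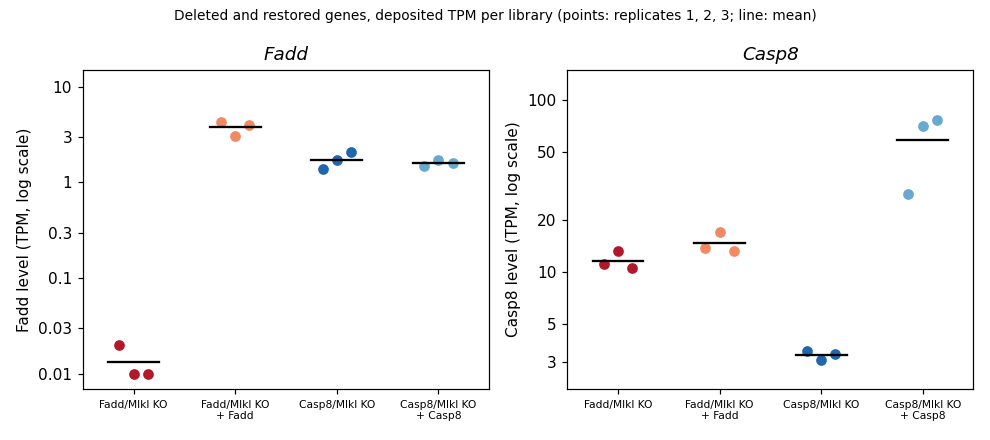
Fadd (left) and Casp8 (right) in deposited TPM on log axes, 1 point per library in order of replicate, with the line at the mean of 3. Fadd was 0.01 to 0.02 TPM in the Fadd/Mlkl knockout and 3.05 to 4.24 TPM when put back, above the 1.39 to 2.08 TPM of the Casp8 line. Casp8 was 3.11 to 3.51 TPM in the Casp8/Mlkl knockout and 28.62 to 76.48 TPM when put back, above the 10.53 to 17.17 TPM of the Fadd line.

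Casp8 transcript in the Casp8/Mlkl knockout stood at 25.2% of the endogenous level of the Fadd line. The gene put back exceeded that level by a margin that varied between replicates. The level of the Casp8 line before deletion was not measured. Casp8 stood at 3.51, 3.11 and 3.34 TPM in the Casp8/Mlkl knockout, against 28.62, 70.80 and 76.48 TPM with Casp8 put back. Replicate 1 of the put-back group had less than the other two, and still lay above every knockout library. The log2 change was -3.63 (SE 0.33, 95% interval -4.35 to -2.92, adjusted p = 0.00371 by edgeR). Casp8 was the 1 gene called among 16396 in this comparison, which is 0.0061%. Without put-back replicate 1 the change was -3.98 (adjusted p = 4.37e-06). The call was lost without knockout replicate 2 (log2 -3.63, adjusted p = 0.0707) and in a fit of the 6 libraries of the line alone (log2 -3.64, adjusted p = 0.28).

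The Fadd line, whose Casp8 gene was intact, had 11.21, 13.29 and 10.53 TPM of Casp8 in the Fadd/Mlkl knockout and 13.76, 17.17 and 13.21 TPM with Fadd put back. The groups overlapped narrowly, and the fitted change was -0.18 (95% interval -0.82 to 0.46, adjusted p = 1.0 by edgeR). Their 6 libraries averaged 13.2 ± 2.33 TPM (SD, n = 6). Casp8 put back averaged 58.6 ± 26.2 TPM (SD, n = 3), 4.44 times this endogenous level, with its replicates at 2.17, 5.37 and 5.80 times it. All 3 put-back libraries exceeded all 6 with endogenous Casp8. On counts the excess was 1.62 in log2, or 3.07-fold (SE 0.24, 95% interval 1.08 to 2.15, adjusted p = 0.00161 by edgeR), in a comparison where 14.5% of all genes were called. Without put-back replicate 1 it was 1.95 (adjusted p = 2.13e-05). Against the endogenous level of the Fadd line, Casp8 in the Casp8/Mlkl knockout stood at 25.2% on TPM and 24.7% on CPM.

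The excess of Casp8 put back was 4.44-fold on TPM and 3.06-fold on mean CPM. These scales differ in the division by transcript length and in the scaling of libraries. The implied effective length of Casp8 was 1458 to 1495 nt in the 3 libraries with Casp8 put back, against 1878 to 2130 nt in the other 9 libraries, and the ranges did not overlap. The knockout libraries lay at the long end, at 2063 to 2130 nt. Casp8 has 4 annotated transcripts, of 2585, 1917, 1849 and 1628 nt, with coding parts of 1440 or 1500 nt, and RSEM shares the reads among them. A shorter effective length of a gene corresponds to a larger share of its shorter transcripts in the estimate. The gene tables do not show which exons the reads came from, so the exons left in the knockout transcript were not analysed here.

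With both genes measured, the balance between Casp8 and Fadd transcripts differed widely. Casp8 exceeded Fadd on TPM by 3.25, 5.63 and 3.31 times with Fadd put back, and by 19.3, 41.2 and 47.5 times with Casp8 put back. These ratios rest on annotated transcript lengths, and the lengths of the transcripts put back are not given in the sources. In the Casp8/Mlkl knockout the remaining Casp8 transcript was 2.53, 1.80 and 1.61 times Fadd. No group had both genes at their endogenous levels, and the nearest to it, endogenous Casp8 at 13.2 TPM in the Fadd line against endogenous Fadd at 1.67 TPM in the Casp8 line, come from different lines.

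EdgeR called none of the 6 partner genes in either knockout comparison, and DESeq2 called Tnfrsf10b in the Fadd line. By edgeR, 0 of 6 were called in the Fadd line and 0 of 6 in the Casp8 line. In each line 1 partner, Tnfrsf10b, had an unadjusted p under 0.05, as had 10.3% of all genes in the Fadd line and 5.67% in the Casp8 line. DESeq2 called 1 of 6 in the Fadd line, where it called 4.27% of all genes, and 0 of 6 in the Casp8 line, where it called 0.877% of genes. Limma-voom called 0 of 6 in each, with 1.22% of all genes called in the Fadd line and 0.0061% in the Casp8 line. The partners' fitted log2 changes ran from -0.56 to 0.46 in the Fadd line, with a median of 0.18 against 0.00 over all genes tested. In the Casp8 line they ran from -0.11 to 0.86, with a median of 0.15 against 0.01 over all genes. On CPM, the knockout and put-back libraries did not overlap for 3 of 6 partners in the Fadd line, where 16.5% of all genes did not overlap. They did not overlap for 2 of 6 in the Casp8 line, against 10.7% of all genes.

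**Figure D2:**
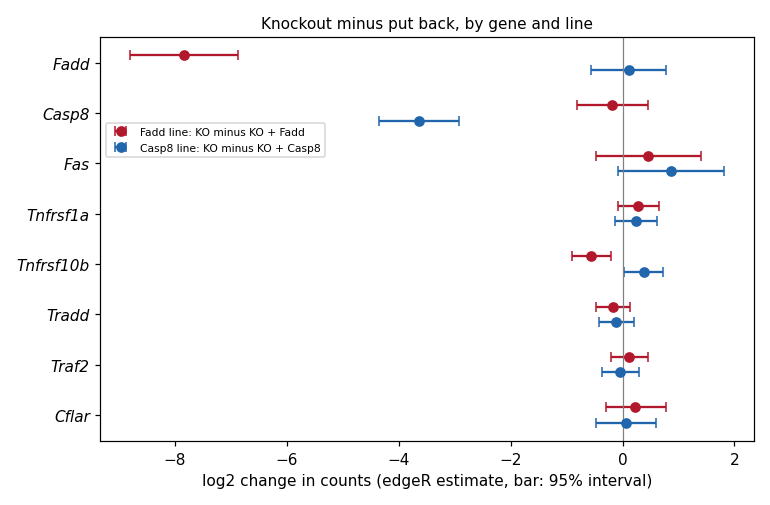
Fitted log2 change of each gene for knockout minus put back, in the Fadd line (upper point of each pair) and the Casp8 line (lower point), with 95% intervals from edgeR. Fadd at -7.84 and Casp8 at -3.63 lie far from 0 in their own lines, and of the partners only Tnfrsf10b has intervals that exclude 0, below it in the Fadd line and above it in the Casp8 line.

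Of the 3 receptors, Tnfrsf10b lay lower in the knockout of the Fadd line and higher in that of the Casp8 line, without overlap, and edgeR called neither difference. It codes for the mouse receptor for the ligand TRAIL (ENSMUSG00000022074.6, chromosome 14, 69767472 to 69784411, plus strand). It had 4.12, 4.44 and 3.73 TPM in the Fadd/Mlkl knockout, against 5.60, 6.89 and 6.91 TPM with Fadd put back. It had 8.40, 6.04 and 7.83 TPM in the Casp8/Mlkl knockout, against 5.96, 5.60 and 5.54 TPM with Casp8 put back. Each Fadd/Mlkl knockout library lay below the 9 others of the study, and each Casp8/Mlkl knockout library lay above the 3 with Casp8 put back. The change was -0.56 in the Fadd line (SE 0.16, 95% interval -0.91 to -0.21, adjusted p = 0.15 by edgeR, 0.0155 by DESeq2) and 0.38 in the Casp8 line (SE 0.16, 95% interval 0.03 to 0.73, adjusted p = 0.839 by edgeR). The difference between these changes was -0.94 (SE 0.23, 95% interval -1.43 to -0.45), with an adjusted p of 0.112 by edgeR and 0.00176 by DESeq2. For that difference edgeR called 0.842% of all genes, DESeq2 2.57% and limma-voom, which did not call Tnfrsf10b, 0.677%, and 1.07% of genes had libraries that did not overlap in opposite directions. Without Casp8/Mlkl knockout replicate 1, the change in the Casp8 line was 0.24.

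Fas was the most variable of the partners and the least expressed. It codes for the receptor of Fas ligand (ENSMUSG00000024778.13, chromosome 19, 34290666 to 34327772, plus strand). It had 1.90, 2.18 and 2.01 TPM in the Fadd/Mlkl knockout, against 0.81, 2.48 and 1.92 TPM with Fadd put back. In the Casp8/Mlkl knockout it had 1.81, 3.31 and 4.50 TPM, against 2.10, 1.85 and 1.60 TPM with Casp8 put back. The groups overlapped in both lines, and the highest library held 5.56 times the lowest. The fitted changes were 0.46 (SE 0.43, adjusted p = 0.919 by edgeR) in the Fadd line and 0.86 (SE 0.43, adjusted p = 0.893) in the Casp8 line, and both 95% intervals include a log2 change of 1. Without Fadd put-back replicate 1, the lowest library, the change in the Fadd line was 0.12. Fas is a target of p53, which large T antigen binds, and 10 other p53 target genes averaged a log2 CPM of 3.75, 3.89 and 5.05 in the Fadd/Mlkl knockout, against 4.08, 4.38 and 5.28 with Fadd put back. They averaged 4.41, 5.01 and 4.78 in the Casp8/Mlkl knockout, against 4.02, 4.41 and 4.44 with Casp8 put back, and their part in the level of Fas was not tested.

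Tnfrsf1a, the main receptor for tumour necrosis factor, was the most expressed partner (ENSMUSG00000030341.17, chromosome 6, 125349362 to 125362484, plus strand). It had 15.89, 13.65 and 11.54 TPM in the Fadd/Mlkl knockout, against 12.13, 12.19 and 11.79 TPM with Fadd put back. It had 12.94, 16.42 and 18.25 TPM in the Casp8/Mlkl knockout, against 15.03, 12.02 and 13.81 TPM with Casp8 put back. On TPM the groups overlapped in both lines, and on CPM the Fadd/Mlkl knockout libraries lay above those with Fadd put back. The changes of 0.28 (95% interval -0.09 to 0.66, adjusted p = 0.706) and 0.24 (95% interval -0.13 to 0.62, adjusted p = 0.952) were not called by edgeR. The first was 0.13 without Fadd/Mlkl knockout replicate 1.

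The adaptors Tradd and Traf2 varied little, with the highest library at 1.47 and 1.51 times the lowest on TPM. TRADD binds the death domain of the tumour necrosis factor receptor (ENSMUSG00000031887.13, chromosome 8, 105258286 to 105264609, minus strand). It had 6.46, 6.20 and 6.31 TPM in the Fadd/Mlkl knockout, against 8.24, 7.25 and 7.13 TPM with Fadd put back. It had 5.59, 5.69 and 7.19 TPM in the Casp8/Mlkl knockout, against 6.69, 6.49 and 6.70 TPM with Casp8 put back. The knockout libraries of the Fadd line lay below those with Fadd put back, and on TPM the groups of the Casp8 line overlapped. On CPM the Casp8/Mlkl knockout libraries also lay below their put-back group. The fitted changes were -0.17 (95% interval -0.48 to 0.14, adjusted p = 0.881) and -0.11 (95% interval -0.42 to 0.20, adjusted p = 0.999 by edgeR).

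Traf2, the adaptor that brings ubiquitin ligases to the receptor complex (ENSMUSG00000026942.13, chromosome 2, 25517982 to 25546940, minus strand), had group means of 10.4 to 11.97 TPM. It had 9.93, 11.40 and 9.94 TPM in the Fadd/Mlkl knockout, against 8.06, 12.14 and 11.23 TPM with Fadd put back. It had 11.53, 10.91 and 12.06 TPM in the Casp8/Mlkl knockout, against 11.92, 12.02 and 11.96 TPM with Casp8 put back. The groups overlapped in both lines, and the lowest value of the 12 was Fadd put-back replicate 1. The changes were 0.12 (95% interval -0.21 to 0.45, adjusted p = 0.971) and -0.04 (95% interval -0.37 to 0.29, adjusted p = 0.999 by edgeR). The first was 0.01 without that library.

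Cflar had 10.90, 8.51 and 8.79 TPM in the Fadd/Mlkl knockout, against 10.31, 7.07 and 7.45 TPM with Fadd put back. It had 10.47, 9.30 and 14.74 TPM in the Casp8/Mlkl knockout, against 11.04, 10.98 and 12.69 TPM with Casp8 put back. The groups overlapped in both lines, and replicate 1 was the highest of its group in both groups of the Fadd line. The changes were 0.23 (95% interval -0.30 to 0.77, adjusted p = 0.948) and 0.06 (95% interval -0.48 to 0.59, adjusted p = 0.999 by edgeR). The first became -0.04 without Fadd/Mlkl knockout replicate 1 alone, which leaves its put-back partner in the fit. Within each of the 3 replicate numbers of the Fadd line the knockout was the higher, and without both replicate 1 libraries the change was 0.21. The second became -0.01 or -0.06 without Casp8/Mlkl knockout replicate 3 or Casp8 put-back replicate 1.

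**Figure D3:**
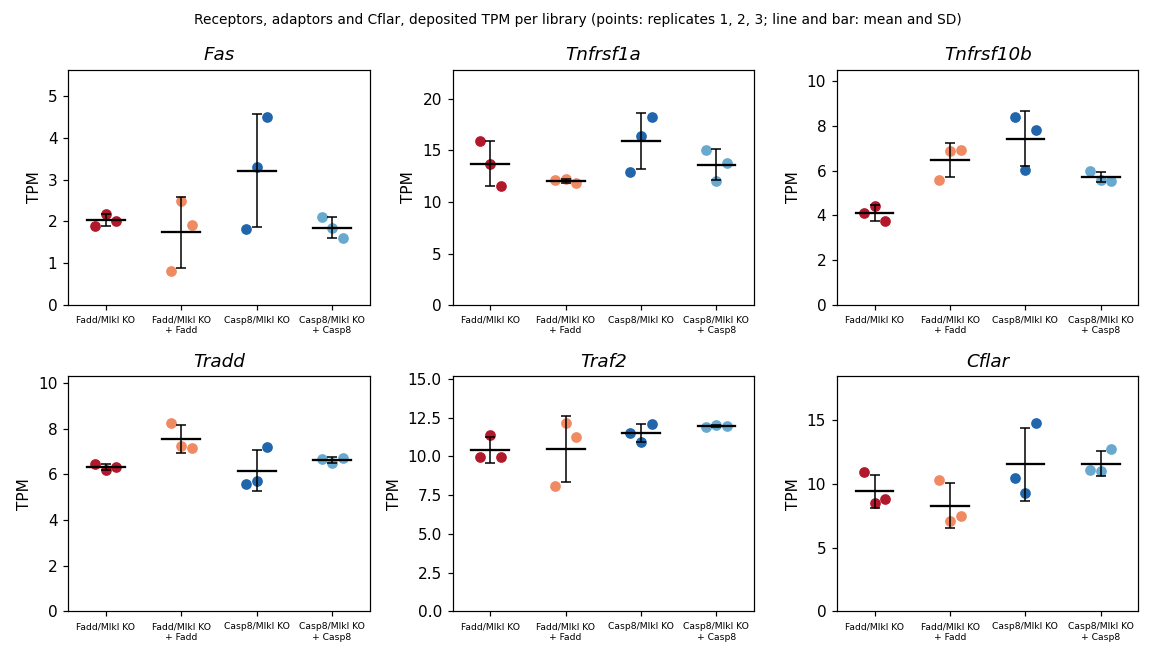
The 6 partner genes in deposited TPM by group, 1 point per library in order of replicate, with the mean and SD of 3. The Fadd/Mlkl knockout libraries hold the lowest 3 Tnfrsf10b values, 3.73 to 4.44 TPM, and the Casp8/Mlkl knockout libraries spread widely for Fas, from 1.81 to 4.50 TPM.

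Cflar stayed within 7.07 to 14.74 TPM in all 12 libraries, and its ratio to Casp8 varied with Casp8. Cflar over Casp8 was 2.98, 2.99 and 4.41 in the Casp8/Mlkl knockout, against 0.386, 0.155 and 0.166 with Casp8 put back. It was 0.972, 0.640 and 0.835 in the Fadd/Mlkl knockout, against 0.749, 0.412 and 0.564 with Fadd put back. On TPM, Cflar was thus below Casp8 in all 9 libraries other than the Casp8/Mlkl knockout. In that knockout the Casp8 transcript that remained comes from a deleted gene. These ratios also rest on annotated transcript lengths. On counts, not divided by length, Cflar exceeded Casp8 in Fadd/Mlkl knockout replicates 1 and 2 and Fadd put-back replicate 1. It was below Casp8 on counts in the rest of those 9 libraries.

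**Figure D4:**
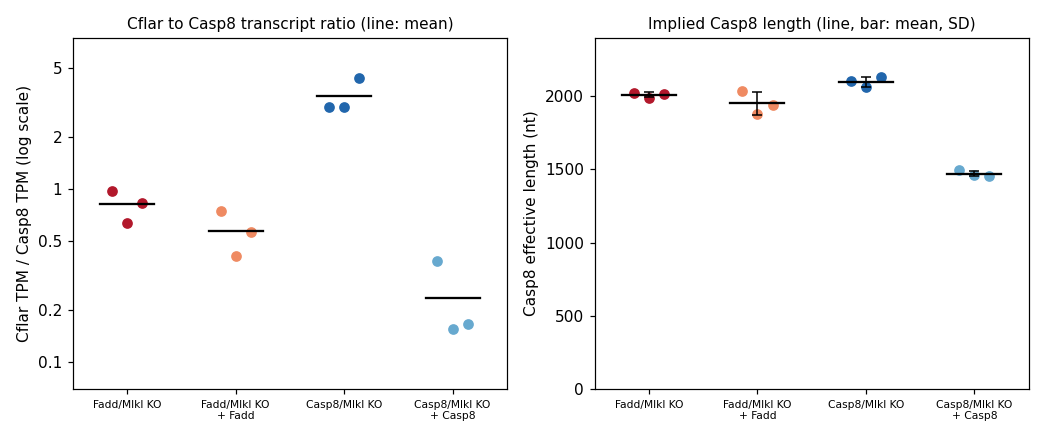
Ratio of Cflar to Casp8 TPM on a log axis (left) and effective length of Casp8 in nt implied by counts and FPKM (right), 1 point per library, with lines at group means and SD bars on the right. The Casp8 put-back libraries have the lowest ratios, 0.155 to 0.386, and the shortest lengths, 1458 to 1495 nt.

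Between the lines, with both groups of each pooled in the contrast, edgeR called no partner and DESeq2 called Tradd. By edgeR 0 of 6 were called in the Fadd line against the Casp8 line, in a comparison where 19.5% of all genes were called. An unadjusted p under 0.05 was found for 1 partner and for 32.5% of all genes. Their fitted differences ran from -0.26 to 0.25, with a median of -0.08 against -0.01 over all genes tested. Tradd had the highest, 0.25 (SE 0.10, 95% interval 0.03 to 0.46, adjusted p = 0.108 by edgeR), on mean CPM of 16.9 in the Fadd line and 14.2 in the Casp8 line. DESeq2 called it (adjusted p = 0.0054) as the 1 of 6 it called, with 25.8% of all genes called by that tool, and limma-voom called 0 of 6 and 18.3% of all genes. Tnfrsf10b differed by -0.23 (95% interval -0.47 to 0.02, adjusted p = 0.192 by edgeR), Fas by -0.26 (95% interval -0.92 to 0.41, adjusted p = 0.609), Cflar by -0.10 (95% interval -0.47 to 0.28, adjusted p = 0.752), Tnfrsf1a by -0.06 and Traf2 by -0.02.

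In order of mean TPM, Tnfrsf1a ranked first of the 6 partners in every group, at 12.04 to 15.9 TPM, and Fas ranked last, at 1.74 to 3.21 TPM. Cflar and Traf2 followed Tnfrsf1a at 8.28 to 11.6 TPM and 10.4 to 11.97 TPM. Tradd, at 6.16 to 7.54 TPM, and Tnfrsf10b, at 4.10 to 7.42 TPM, stood between these and Fas. Across the groups of a gene, the neighbours in order of level had overlapping libraries for Cflar, Fas, Tnfrsf1a and Traf2 throughout. For Tnfrsf10b the Fadd/Mlkl knockout was separate from the next group above it, and for Tradd the Fadd put-back group was separate from the Casp8 put-back group below it, and the Casp8 put-back group was separate from the Fadd/Mlkl knockout below that. Endogenous Fadd, at 1.67 TPM, lay just below the lowest group mean of Fas.

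The wider pathway was described with 48 further genes in 8 groups, of which 44 passed the filter on low counts. The ligands Tnf, Fasl and Lta did not pass. They held 5, 5 and 4 counts over the 3 Fadd/Mlkl knockout libraries, 1, 2 and 5 with Fadd put back, 1, 3 and 0 in the Casp8/Mlkl knockout and 0, 0 and 2 with Casp8 put back. The receptor gene Tnfrsf26 did not pass either, with 52, 10, 4 and 2 counts in the same groups. Of the 44, 0 were called by edgeR for knockout against put back in the Fadd line, with 8 at an unadjusted p under 0.05, beside 10.3% of all genes, and 3 called by DESeq2, beside 4.27%. In the Casp8 line 0 were called by edgeR or DESeq2, with 5 at an unadjusted p under 0.05, beside 5.67% of all genes. Limma-voom called 0 in each line. The list's median log2 change was 0.11 in the Fadd line, against 0.00 over all genes, with 32 of 44 above 0, as were 50.6% of all genes. It was 0.13 in the Casp8 line, against 0.01 over all genes, with 35 of 44 above 0, as were 51.0% of all genes. For the difference between the lines in these changes 0 were called by edgeR or DESeq2, and 0 had an unadjusted p under 0.05, which 7.4% of all genes had.

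The pathway genes with the largest fitted changes in the Fadd line were the ubiquitin ligase gene Birc3 and the receptor gene Tnfrsf23, among those with at least 1 TPM in a group. Birc3, whose protein cIAP2 works beside TRAF2, had 10.87, 11.10 and 8.43 TPM in the Fadd/Mlkl knockout, against 5.31, 7.22 and 4.98 TPM with Fadd put back. The groups did not overlap, and the change of 0.99 (SE 0.24) had an adjusted p of 0.0831 by edgeR and 0.00456 by DESeq2. In the Casp8 line Birc3 had 5.38, 6.63 and 9.99 TPM in the knockout, against 6.93, 4.06 and 4.24 TPM with Casp8 put back, and these groups overlapped (log2 change 0.62, adjusted p = 0.776 by edgeR). Tnfrsf23, a TRAIL receptor of the mouse without a death domain, had a fitted change of 0.85 (SE 0.34, adjusted p = 0.373), at 1.93 ± 0.563 TPM in the Fadd/Mlkl knockout against 1.21 ± 0.677 TPM with Fadd put back (SD, n = 3 each). Tnip1, which codes for an inhibitor of signalling that binds ubiquitin chains, had 15.8 ± 1.43 TPM in the Fadd/Mlkl knockout and 11.3 ± 1.87 TPM with Fadd put back (SD, n = 3 each). Its change of 0.64 (adjusted p = 0.127 by edgeR) was called by DESeq2 (adjusted p = 0.017) and by edgeR with a replicate block within each line (adjusted p = 0.0423), under which 2.71% of all genes were called. In the Casp8 line Tnip1 changed in the same direction, by 0.50 (95% interval 0.12 to 0.88, adjusted p = 0.701 by edgeR). The difference between the lines in this change was 0.14 (SE 0.24). The third gene called by DESeq2 in the Fadd line was the receptor Tnfrsf22 (log2 0.65, adjusted p = 0.0484).

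In the Casp8 line the largest fitted changes were those of the adaptor Traf1 and the necroptosis kinase Ripk3. The same limit of at least 1 TPM in a group applied. Ripk3 had 35.50, 28.50 and 30.74 TPM in the Casp8/Mlkl knockout, against 5.40, 19.21 and 18.17 TPM with Casp8 put back. The groups did not overlap, and put-back replicate 1, the library with the least Casp8 of its group, also had the least Ripk3. The change was 1.15 (SE 0.36, adjusted p = 0.647 by edgeR), and 0.76 without that library. Traf1 had 3.43, 0.67 and 1.00 TPM in the Casp8/Mlkl knockout, against 1.58, 0.14 and 0.34 TPM with Casp8 put back. Its replicate 1 libraries were the highest of both groups, and the change of 1.38 (SE 0.81, adjusted p = 0.948) became -0.04 without knockout replicate 1 alone. The knockout was the higher within each of the 3 replicate numbers, and without both replicate 1 libraries the change was 1.20. Mlkl transcript was still present at 1.43 to 6.22 TPM over the 12 libraries, all of which carry the Mlkl knockout.

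Between the lines, 8 of the 44 pathway genes were called higher in the Fadd line than in the Casp8 line by edgeR and 0 lower, beside 8.15% of all genes called higher and 11.4% called lower. In either direction 14 of the 44 had an unadjusted p under 0.05, beside 32.5% of all genes. DESeq2 called 11 of the 44 and 25.8% of all genes, and limma-voom called 8 and 18.3%. The list's median difference was 0.07, against -0.01 over all genes, with 25 of 44 above 0, as were 49.0% of all genes. Otulin, which removes linear ubiquitin chains, was higher by 0.99 (SE 0.18, adjusted p = 0.00358 by edgeR). It had 14.11, 23.91 and 27.16 TPM in the Fadd/Mlkl knockout and 24.53, 29.47 and 31.67 TPM with Fadd put back, against 18.30, 11.19 and 11.45 TPM in the Casp8/Mlkl knockout and 13.12, 14.14 and 13.06 TPM with Casp8 put back. Fadd/Mlkl knockout replicate 1 lay below 2 libraries of the Casp8 line, and the other libraries of the Fadd line lay above all of the Casp8 line. Tnip1 was higher by 0.59 (SE 0.12, adjusted p = 0.00666). The kinase gene Tbk1 (log2 0.47, adjusted p = 0.0253) and Ikbkg, the regulatory subunit of the IKK complex (log2 0.42, adjusted p = 0.0218), were higher by less.

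Another 3 of those called were less abundant. Dedd2, with a death effector domain like that of FADD, was higher by 0.94 (SE 0.25, adjusted p = 0.0229 by edgeR), with group means of 1.10 to 2.09 TPM. Traf1 was higher by 1.79 (SE 0.57, adjusted p = 0.0497), which stands at the threshold. Tnfsf10, which codes for TRAIL, the ligand of Tnfrsf10b, had 291, 95 and 72 counts in the Fadd/Mlkl knockout and 0, 19 and 13 with Fadd put back, against 0, 6 and 6 in the Casp8/Mlkl knockout and 2, 0 and 0 with Casp8 put back. Its adjusted p was 0.00921, at no more than 0.63 TPM in any library, and the library with the most counts was the one highest in interferon response genes. The calls of Otulin, Tnip1 and Tnfsf10 held in all 19 alternative settings, while those of Traf1, Tbk1, Dedd2 and Ikbkg were lost in 11, 8, 6 and 5 of them.

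**Figure D5:**
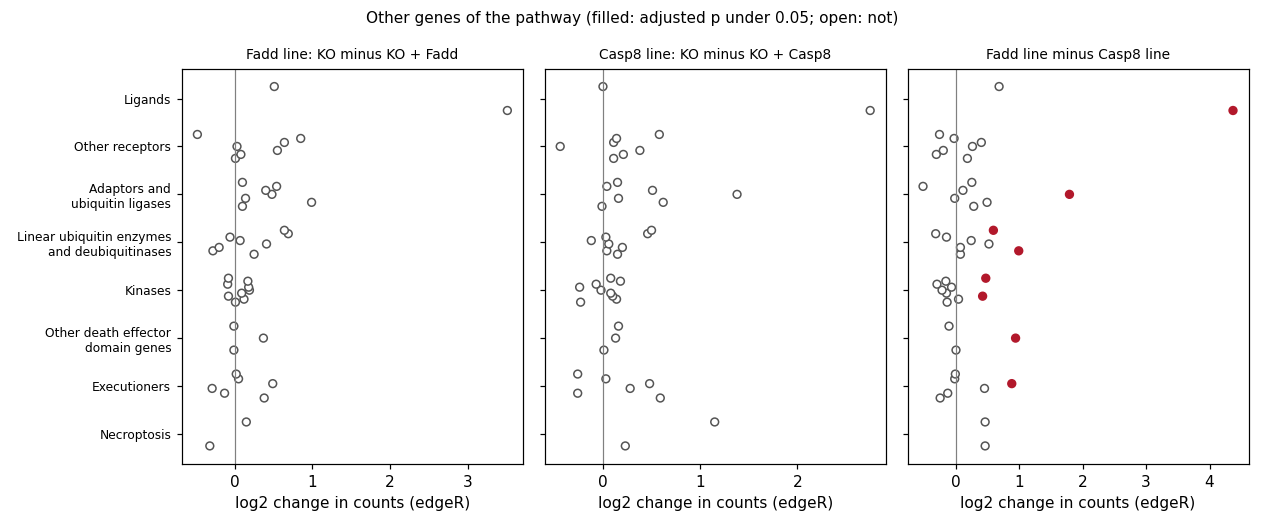
Fitted log2 changes of the 44 tested pathway genes by group of function, for knockout minus put back in each line and for the Fadd line minus the Casp8 line, 1 point per gene, filled where the adjusted p from edgeR was under 0.05. No point is filled for the knockouts, and 8 are filled between the lines, all above 0.

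The genes most like each member in pattern were those with the smallest root mean square difference of centred log2 CPM over the 12 libraries. For Fadd they were Ttc38 at 0.709, Enpp5 at 0.862 and Ank3 at 0.879, against a standard deviation of Fadd itself of 2.95. For Casp8 the nearest was Gm1141 at 0.888, against a standard deviation of 1.29, so that no gene came close to its pattern. Tnfrsf10b was nearest to Actg1, the gene for cytoplasmic gamma-actin, at 0.135, then Mettl21a at 0.167 and Grb2 at 0.178, with its own standard deviation at 0.291. Fas was nearest to Vegfc at 0.299, Dram1 at 0.307 and Dusp23 at 0.339, against 0.613. Cflar was nearest to Lrig2 at 0.079, Tradd to Hps5 at 0.0924, Tnfrsf1a to Rprd2 at 0.0868 and Traf2 to Atp6v0b at 0.0683, all genes of small spread. These are descriptions over libraries that share lines and replicates.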

How the data were processed

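RNA was sequenced from 12 libraries of total RNA, made with a stranded kit. Per the labels and the submitters' processing notes, Trim Galore 0.5.0 trimmed the reads, STAR 2.7.5a aligned them to mm10 with GENCODE M22 genes, and RSEM estimated the counts. Each deposited table gives expected counts, TPM and FPKM, per the file headers. Of the expected counts above 0, 95.83% to 96.31% per library were whole numbers. TPM deposited by the authors gave levels. FPKM deposited by the authors was used for the effective length alone, which is the count over the product of FPKM and total counts, scaled to nt. A further table of retrovirus regions was not used here.

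Expected counts were rounded, filtered with filterByExpr at a minimum count of 10, scaled by TMM and fitted with edgeR 4.0.16 in R 4.3.3, using 1 mean per group and every library. The common coefficient of biological variation was 0.37. Benjamini-Hochberg adjustment ran over 16396 genes, and the call threshold was 0.05. Intervals are at 95%. Intervals and p-values measure the spread between these cultures. DESeq2 1.42.0 and limma-voom (limma 3.58.1) were run as alternatives, beside other scaling, no filter, replicate blocks and left-out libraries. Coordinates and transcripts came from GENCODE M21, which matched all 8 identifiers. Promoter windows from RefSeq matched 6 of the 8 genes.

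The 8 genes and all lists were chosen with earlier results of these data known. Named pathway genes are those called in a comparison, and per comparison the 2 largest changes among those with at least 1 TPM in a group, while likeness names 3 genes per member. Tnip1, Tnfrsf22 and Mlkl in the knockout comparisons were picked once their values were known. For 1 gene of the pathway list, values are not reported here.

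Within a line, deviations from the group means correlated between libraries of 1 replicate number. The Fadd line gave 0.66, 0.391 and 0.639 for the 3 numbers, and the Casp8 line gave 0.203, 0.305 and 0.127. Libraries of different numbers gave at most 0.183 in the Fadd line and at most 0.144 in the Casp8 line. In the Casp8 line that value exceeds the 0.127 of replicate number 3, so the pairs are less clear there. The labels do not explain the numbers. Same-numbered libraries of a line were treated as pairs in the replicate block fits and where both were left out. The main fit has no pairing term, so its intervals and p-values do not take the pairs into account.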

Additional observations from a re-analysis of the deposited data

Results flagged for a closer look

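The change between knockout and put back differed between the lines for Fadd by -7.94 and for Casp8 by 3.45 on the log2 scale (adjusted p = 4.83e-05 and 0.00283 by edgeR). Each gene was deleted and put back in 1 line alone, so the design sets both differences.

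Tnfrsf10b differed between the lines by -0.94, since its knockout libraries lay below the put-back libraries in the Fadd line and above them in the Casp8 line. The difference had an adjusted p of 0.112 by edgeR, 0.151 by limma-voom and 0.00176 by DESeq2, and over all alternatives it ran from -1.09 to -0.80. With both replicate 1 libraries of the Fadd line left out it was -1.09 (adjusted p = 0.0885), and with both of the Casp8 line left out it was -0.81 (adjusted p = 0.11).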

How the results depend on the processing

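The deletion and put-back values of Fadd and Casp8 kept their direction under every alternative run. Leaving out 1 library at a time, the Fadd change ran from -8.55 to -7.41, the Casp8 change from -3.98 to -3.40, Fadd put back over endogenous from 1.15 to 1.40 and Casp8 put back over endogenous from 1.39 to 1.95. On mean TPM these last were 1.17 and 2.15. Fit to the 6 libraries of its line alone, Casp8 stood at -3.64 (adjusted p = 0.28), with fewer libraries to estimate the spread. With the replicate number as a block within each line, paired libraries gave Casp8 -3.51 (adjusted p = 0.0463), 0 of 6 partners and 1 pathway gene in the Fadd line, Tnip1. The block changed no other call on the members. DESeq2 called 3 pathway genes in the Fadd line, and 1 partner each between the lines and for the difference of the changes.

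The count of pathway genes in the Fadd line ran from 0 to 1 without 1 library, and was 1 without both replicate 1 libraries of the Casp8 line, in each case Birc3. The count between the lines ran from 4 to 12 without 1 library, with 4 without Casp8 put-back replicate 2 or 3, and was 15 and 5 without both replicate 1 libraries of the Casp8 line and of the Fadd line. The share of all genes called in these fits is not given here, so the counts cannot be set against it. In the main fit that share was 1.52% in the Fadd line and 19.5% between the lines. The cause was not tested.

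Changes near 0 turned direction when libraries were left out. Without 1 library, Cflar ran from -0.04 (no Fadd/Mlkl knockout replicate 1) to 0.52 in the Fadd line, and from -0.06 (no Casp8 put-back replicate 1) to 0.14 in the Casp8 line, with -0.01 lacking knockout replicate 3. Between the lines Traf2 ran from -0.05 to 0.06, with 0.00 lacking Fadd/Mlkl knockout replicate 2 or 3. For the difference of the changes, Cflar ran from -0.09 to 0.48, Tnfrsf1a from -0.12 to 0.14, with -0.08 lacking Casp8/Mlkl knockout replicate 1, and Tradd from -0.10 to 0.02, the last lacking Fadd put-back replicate 1. Traf1 ran from -0.04 to 2.61 in the Casp8 line and from -2.12 to 0.51 for the difference, and turned direction without Casp8/Mlkl knockout replicate 1. Leaving out 1 library breaks a pair, and without both replicate 1 libraries of the line Traf1 stood at 1.20 in the Casp8 line and Cflar at 0.21 in the Fadd line. Fas ran from 0.12 to 0.76 in the Fadd line, Tnfrsf1a from 0.13 to 0.37 in that line and Ripk3 from 0.76 to 1.44 in the Casp8 line. Without both replicate 1 libraries of the Fadd line, Traf2 stood at -0.07 in that line, at 0.03 between the lines and at -0.03 for the difference, and Tnfrsf1a at -0.10 for the difference. Without those of the Casp8 line, Tnfrsf1a stood at -0.13 for the difference. The level of Fadd in the Fadd/Mlkl knockout rests on 16 counts.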
